A study of Mus musculus with 8 samples.

Results

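The ceramide and epidermal barrier lipid genes are 33 named genes of the enzymes, transporters and carriers that make, move and break down the lipids of the outer skin. A gene entered through the probe sets (groups of array probes for 1 transcript) to which the platform annotation gives its symbol alone, and the brightest of these, by its mean, stood for it. All 33 of 33 genes had such a probe set, among 18193 genes in all. The rule names the genes and uses no measured value of the diets, but the list was drawn up with earlier results of these data known.

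Ceramides are built from a sphingoid base and a fatty acid. In the outermost living layer of the epidermis they are packed into lamellar bodies, released, and trimmed by lipid hydrolases into the sheets that limit water loss. Very long acylceramides, some of them bound covalently to the cell envelope, are particular to this tissue. Inherited loss of the transporter ABCA12 or of enzymes such as CERS3, PNPLA1, ALOX12B and ALOXE3 is a known cause of ichthyosis.

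Dorsal skin was taken from females of the hairless strain Hos:HR-1 at 10 weeks of age. For 1 week the control mice had eaten AIN-93G, a purified rodent diet, and the collagen mice the same diet mixed with fish scale collagen hydrolysate, a digest of collagen into peptides, at 2.0 g per 100 g. There were 4 arrays per diet, which the labels call biological replicates, out of 8 mice per diet housed 4 to a cage. The sources used here do not say which mouse or cage gave an array or whether RNA was pooled, so a p-value measures the spread between these arrays. The RNA came from whole powdered skin, in which a smaller share of epidermis and less RNA per cell cannot be told apart.

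The deposited log2 values ran from 6.56 to 14.46 and the array medians from 8.1929 to 8.1932. Values of most probe sets hardly varied between arrays, though unequally, and the widest range of any gene was 1.04. The median range over the 8 arrays was 9.17e-06 for all genes and 9.34e-05 for the barrier lipid genes, and 16.04% of all genes had a range at least as wide as the latter. The 2294 genes at or above the median level of the barrier lipid genes had a median range of 1.38e-05. The sources used here do not say what compressed the values. A difference may therefore not be a log2 fold change, and none is stated as one. Below, a deviation is the value in an array minus that gene's mean over the 8 arrays, in units of 0.0001 on the deposited log2 scale. Differences are collagen minus control means in the same unit, with n = 4 arrays per diet, or in units of the within-diet standard deviation (SD).

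RefSeq's promoter table of build GRCm38.p6 held 29 of the 33 genes. Shown here are the 250 bases before the annotated start of 4 genes that stand for the patterns described below: Sptlc3, which followed the list, Psap, which ran against it, Elovl4, the elongase of ultra-long chains, and Alox12b, 1 of the paired lipoxygenases. Each runs 5′ to 3′ on the gene's own strand. Capitals mark matches to any of 4 short words on either strand. For AP-1, a factor that keratinocytes use in differentiation, the word searched was TGAGTCA. For the GC box, a site of SP1-type factors, it was GGGCGG. The CCAAT box was searched by the letters of its name. For the TATA box the word was TATAAA.
Sptlc3, chr2:139493663-139493912, plus strand: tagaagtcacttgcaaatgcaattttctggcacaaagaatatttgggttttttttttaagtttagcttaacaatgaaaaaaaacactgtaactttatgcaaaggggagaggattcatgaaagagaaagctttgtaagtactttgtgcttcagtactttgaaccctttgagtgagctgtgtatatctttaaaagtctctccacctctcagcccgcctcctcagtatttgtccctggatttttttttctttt
Psap, chr10:60277378-60277627, plus strand: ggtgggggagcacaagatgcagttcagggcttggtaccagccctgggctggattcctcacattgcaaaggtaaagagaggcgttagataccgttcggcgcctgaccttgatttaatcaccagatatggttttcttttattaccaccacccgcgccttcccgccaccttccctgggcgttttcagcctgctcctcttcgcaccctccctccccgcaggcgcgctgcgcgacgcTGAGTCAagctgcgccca
Elovl4, chr9:83806306-83806555, minus strand: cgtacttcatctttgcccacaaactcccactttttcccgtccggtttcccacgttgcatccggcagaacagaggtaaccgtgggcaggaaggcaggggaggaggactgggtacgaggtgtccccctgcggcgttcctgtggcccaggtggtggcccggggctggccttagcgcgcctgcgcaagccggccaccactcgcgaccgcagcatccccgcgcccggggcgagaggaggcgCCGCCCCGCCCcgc
Alox12b, chr11:69156822-69157071, plus strand: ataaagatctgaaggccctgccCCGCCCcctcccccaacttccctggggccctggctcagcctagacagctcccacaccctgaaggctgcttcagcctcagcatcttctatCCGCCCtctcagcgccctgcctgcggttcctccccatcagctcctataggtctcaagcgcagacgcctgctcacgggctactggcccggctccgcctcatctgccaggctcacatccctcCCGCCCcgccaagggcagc
The Sptlc3 window held none of these words, the Psap window held an AP-1 word near its 3′ end, and the windows of Elovl4 and Alox12b held GC boxes. Over the 29 genes, a GC box was present in 19 (65.5%), against 32.7% of all 32851 promoters and 45.8% of 17491 protein-coding genes. The AP-1 word was present in 4 (13.8%), Psap, Sgms1, Sgms2 and Sult2b1, against 4.46% of all promoters and 4.77% of protein-coding genes. A CCAAT box was present in 10 (34.5%), against 33.8% of all promoters and 39.5% of protein-coding genes. The TATA word was present in 0 of 29, against 12.4% and 13.7%. The 29 and the protein-coding genes are counted by gene, all promoters by promoter. These are matches of letters in a window and not mapped binding sites.

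Between the diets, no barrier lipid gene passed the test. Across all 18193 genes, limma called 0.0% at an adjusted p under 0.05 (635 had an unadjusted p under 0.05), as did an unmoderated linear model, and the barrier lipid genes called were 0 of 33. The smallest unadjusted p among them was 0.0608, for Kdsr, with an adjusted p of 0.999. At an unadjusted p under 0.05, 0 of 33 were higher and 0 of 33 lower with collagen, against 2.26% and 1.23% of all genes. The 2 diets overlapped in all 33 genes, where 2.02% of all genes had no overlap.

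The means nevertheless leaned to the collagen side. Of the 33 genes, 26 had the higher mean with collagen, against 52.9% of all genes, and the median difference was 0.338 SD, against 0.0517 SD over all genes. The 7 with a lower mean were Cers2, Cers6, Abca12, Psap, Sgpl1, Alox12b and Aloxe3. Leaving out 1 array moved it: 18 of 33 means were higher without collagen array 2 (53.99% of all genes) and 27 without collagen array 4 (48.83% of all genes), where the median difference was 0.847 SD. Without collagen array 4, 6 of the 33 genes had an unadjusted p under 0.05, and so did 1552 of all 18193 genes, against 635 with it. Lists of cell type markers leaned too, by median differences of -0.984 SD for dermal fibroblasts (0 of 6 higher with collagen), -0.993 SD for endothelium (0 of 5), -0.957 SD for macrophages and Langerhans cells (0 of 5), 0.793 SD for basal keratinocytes (6 of 7) and 1.38 SD for melanocytes (5 of 5). For cornified and suprabasal keratinocytes the median was 0.0903 SD (7 of 10 higher), for sebaceous gland 0.555 SD (3 of 4), for hair follicle -0.526 SD (0 of 7), for adipocytes 0.0933 SD (2 of 4) and for skeletal muscle -0.842 SD (1 of 7). The part of these cell types in the lean was not tested. Centring each array on its median made 32 of 33 means higher, but it did the same to 94.6% of all genes, since the array medians differed by more than the median gene varied.

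**Figure D1:**
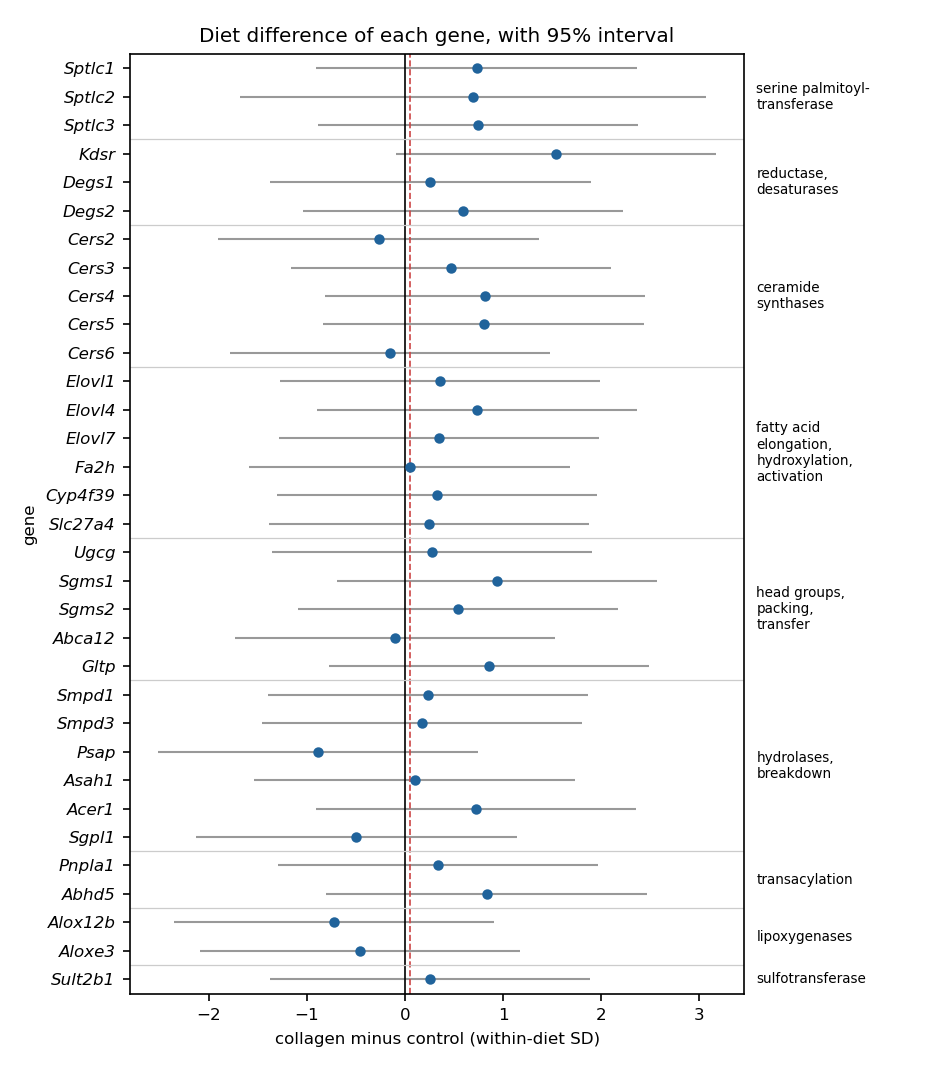
Difference between the diets for each of the 33 genes (collagen minus control, in within-diet SD, x axis), ordered by role, with points for the estimates of limma and bars for 95% intervals, from 4 arrays per diet. The dashed line is the median of all genes at 0.0517 SD. All 33 intervals include 0, and 26 points lie above it.

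Serine palmitoyltransferase joins serine and palmitoyl-CoA in the step that commits carbon to sphingolipids. SPTLC1 is the common subunit, and SPTLC2 and SPTLC3 are alternative catalytic subunits. All 3 genes had the higher mean with collagen, by 0.697 to 0.741 SD. Sptlc3 (array level 11.41) deviated by 0.225, -1.95, -0.679 and -0.0429 in control arrays 1 to 4, and by 1.71, 2.40, 0.741 and -2.40 in collagen arrays 1 to 4. Collagen arrays 1 to 3 lay above all controls and collagen array 4 below all of them. The difference was 1.22 ± 1.12 (SE), with a 95% interval from -1.47 to 3.92 and an exact two-sided permutation p of 0.314. The smallest p that the 70 assignments of 8 arrays can give is 0.0286.

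Sptlc2 varied least of all 33 genes. Its values lay within 8e-07 of each other, close to the last deposited decimals, with deviations of -0.000625, -0.00302, 0.00208 and -0.00263 in the controls and 0.00447, 7.5e-05, -0.00352 and 0.00317 with collagen. The arrays did not sort by diet, and the difference was 0.0021 ± 0.00298 (SE; exact permutation p = 0.343). Sptlc1 and Sptlc3 were ordered alike over the 8 arrays (Pearson r = 0.973, Spearman rho = 1.0), a pair picked after its values were seen and given without a test. Their r was 0.948 without the 2 arrays farthest from the median, collagen arrays 2 and 4. No relation of Sptlc2 to its partners passed the test, with r = -0.00243 to Sptlc1 (exact permutation p = 0.995, adjusted 0.995 over 10 gene pairs) and 0.0586 to Sptlc3 (exact permutation p = 0.889, adjusted 0.987). The rho was 0.0238 for both pairs (exact permutation p = 0.977, adjusted 0.977). Without collagen arrays 2 and 4, the 2 farthest from the Sptlc1 median, r to Sptlc1 was 0.363. Without collagen arrays 1 and 4, the 2 farthest from the Sptlc2 median, r to Sptlc3 was 0.185. The other 2 probe sets of Sptlc2 differed from each other in sign, at 0.0896 ± 0.199 and -0.00495 ± 0.00546 (SE), so these r values hold for its brightest probe set alone.

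The next enzymes reduce the new base (KDSR) and introduce the double bond of ceramide (DEGS1) or the hydroxyl group of phytoceramide (DEGS2, which can do either). Kdsr, at an array level of 11.06, came closest to a difference between the diets. Its deviations were -0.153, -0.723, -0.530 and -0.0389 in the controls and 0.880, 0.629, 0.392 and -0.457 with collagen. Collagen arrays 1 to 3 exceeded all controls, and collagen array 4 lay among them. The difference of 0.722 ± 0.319 (SE) had a 95% interval from -0.0437 to 1.49 and an exact permutation p of 0.0857. Its other 2 probe sets were higher too, by 0.193 ± 0.163 and 0.120 ± 0.0568 (SE). Degs1 and Degs2 differed by 0.0481 ± 0.126 and 3.95 ± 4.50 (SE). Their r over the arrays was -0.394 (exact permutation p = 0.334, adjusted 0.557), with rho = -0.310 (exact permutation p = 0.462, adjusted 0.660). The r was -0.527 without control array 4 and collagen array 2, the 2 farthest from the Degs1 median.

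Ceramide synthases attach the fatty acid, each with its own preference for chain length. CERS3 takes the ultra-long acyl chains of epidermal acylceramides, CERS4 and CERS2 take long and very long chains, and CERS5 and CERS6 take palmitoyl chains. Cers3, Cers4 and Cers5 had the higher mean with collagen, by 0.466, 0.814 and 0.804 SD. Cers2 and Cers6 had the lower mean, by -0.270 and -0.155 SD, and both turned to the higher side when arrays were centred on their medians (0.447 and 0.433 SD), as Cers2 did after quantile normalization (0.314 SD).

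Cers3 had the widest spread of the 33 genes, over 30.9 units. It deviated by 3.89, -3.55, -0.577 and -9.14 in the controls and by 7.57, 15.1, 2.42 and -15.7 with collagen. Collagen arrays 2 and 4 were the highest and the lowest of all 8, and the difference was 4.69 ± 6.84 (SE; exact permutation p = 0.543). Cers4, the synthase with the smallest p, deviated by -0.451, -1.27, -0.385 and 0.767 in the controls and by 0.609, 1.25, 0.168 and -0.682 with collagen. Control array 4 lay second only to collagen array 2, and the difference was 0.671 ± 0.560 (SE), with an exact permutation p of 0.314.

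On the deposited values Cers2 ran against Cers3, lowest where Cers3 was highest, in collagen array 2. Their r was -0.822 (rho = -0.762), in a pair picked after its values were seen. It was -0.650 without the 2 arrays farthest from the Cers2 median, control array 1 and collagen array 2. That left in collagen array 4, the highest for Cers2 and the lowest for Cers3. Without collagen arrays 2 and 4, r to the mean of the other barrier lipid genes was -0.227 for Cers2 and 0.519 for Cers3. After quantile normalization these were 0.393 and 0.930, both above 0. Within the family the median r over the 10 pairs of synthases was -0.0477, against 0.345 over all barrier lipid pairs. With arrays centred on their medians each of the 5 had an r above 0.5 to the mean of the other barrier lipid genes.

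The acyl chain is lengthened by ELOVL1, ELOVL4 and ELOVL7, of which ELOVL4 makes the ultra-long chains of acylceramide. FA2H adds the 2-hydroxyl group, CYP4F39, the mouse counterpart of human CYP4F22, adds the omega-hydroxyl group, and SLC27A4 activates long fatty acids. All 6 genes had the higher mean with collagen, by 0.0467 to 0.738 SD, but 2 of 6 did so without collagen array 2. Elovl4 deviated by -0.169, -0.0621, 0.0707 and -0.0102 in the controls and by 0.0495, 0.183, 0.0679 and -0.130 with collagen. Collagen array 2 was its highest, control array 1 its lowest, and the difference was 0.0853 ± 0.0786 (SE; exact permutation p = 0.371). A second Elovl4 probe set gave 0.234 ± 0.202 (SE).

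These chain-making genes varied together more than any other role group with over 3 pairs. Their median r over 15 pairs was 0.673, and 93.3% of pairs were above 0. Quantile normalization left all of these genes but Cyp4f39 constant, so the relation could not be checked under that scaling. Collagen array 2 was the highest array for 5 of the 6, all but Elovl1. The r of the 6 to the mean of the other barrier lipid genes ran from 0.523 (Elovl1) to 0.819 (Cyp4f39). Without collagen arrays 2 and 4 it was lower for each, from 0.0893 (Fa2h) to 0.634 (Elovl4). Cers3 and Elovl4, which act in turn on the same acyl chains, had r = 0.632 (exact permutation p = 0.0912, adjusted 0.228) and rho = 0.476 (exact permutation p = 0.243, adjusted 0.598). Cers3 and Cyp4f39 had r = 0.697 (exact permutation p = 0.0555, adjusted 0.185) and rho = 0.595 (exact permutation p = 0.132, adjusted 0.598). Both relations rested on collagen arrays 2 and 4, the 2 farthest from the median of Cers3, without which r was 0.0581 and -0.0965.

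Finished ceramide receives a head group or is moved. UGCG makes glucosylceramide, SGMS1 and SGMS2 make sphingomyelin, ABCA12 loads lamellar bodies, and GLTP carries glycolipids. Sgms1 had the smallest p here, with deviations of 0.369, -0.917, -0.689 and -0.569 in the controls and 2.19, 0.214, 0.118 and -0.719 with collagen. Collagen array 1 alone stood above all controls, and the difference was 0.903 ± 0.653 (SE; exact permutation p = 0.314). Abca12 deviated by 0.155, 0.0841, -0.455 and 0.294 in the controls and by 0.0923, 0.297, 0.170 and -0.637 with collagen. Its difference of -0.0390 ± 0.256 (SE; exact permutation p = 0.886) was below 0, but it turned above 0 after quantile normalization, with median centring, with array weights and without control array 1, control array 4 or collagen array 4. Ugcg, Sgms2 and Gltp differed by 0.0671 ± 0.166, 0.148 ± 0.186 and 0.147 ± 0.117 (SE).

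The relations of Abca12 to 2 genes whose products it works with did not pass the test. Its r was 0.112 to Ugcg (exact permutation p = 0.807, adjusted 0.987; rho = 0.262, exact permutation p = 0.536, adjusted 0.671) and 0.303 to Elovl4 (exact permutation p = 0.454, adjusted 0.648; rho = 0.381, exact permutation p = 0.360, adjusted 0.5998). Without control array 3 and collagen array 4, the 2 farthest from the Abca12 median, r to Ugcg was 0.292. Without control array 1 and collagen array 2, the 2 farthest from the Elovl4 median, r to Elovl4 was 0.375. Without collagen arrays 2 and 4 instead, both r were negative. Within the 4 collagen arrays r to Ugcg was 0.858 and within the 4 controls -0.949, a contrast of 4 points each that was not tested.

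Hydrolases trim these lipids after secretion and recycle them. SMPD1 and SMPD3 are sphingomyelinases, PSAP is the precursor of the saposins that present lipids to lysosomal hydrolases, ASAH1 and ACER1 are the acid and alkaline ceramidases, and SGPL1 cleaves phosphorylated sphingoid bases. Of the 6 genes, 4 had the higher mean with collagen and Psap and Sgpl1 the lower. Psap deviated by 0.0322, 0.0806, 0.168 and 0.0395 in the controls and by -0.184, -0.300, -0.110 and 0.273 with collagen. All 4 controls lay between collagen array 4 and the other 3 collagen arrays, nearly the reverse of the order in Sptlc3. The difference was -0.160 ± 0.123 (SE; exact permutation p = 0.257), and a second Psap probe set gave -1.13 ± 0.812 (SE) and r = 0.989 to the brighter one. On the SD scale the Psap difference was -0.886, and it was above 0 after quantile normalization (0.463) and median centring (0.361).

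Psap was the gene that ran most against the others. Its r to the mean of the other 32 genes was -0.887 (rho = -0.857), and -0.555 without collagen arrays 2 and 4, but 0.457 after quantile normalization and 0.875 with median centring. To Sptlc3 its r was -0.931 (rho = -0.976) and to Acer1 -0.891 (rho = -0.881), both picked after their values were seen, with -0.822 and -0.763 without the 2 farthest arrays. Acer1, the alkaline ceramidase of the differentiated epidermis, followed Sptlc3 (r = 0.952, rho = 0.905, and 0.89998 without the 2 farthest), in a pair also picked after its values were seen. It differed by 2.21 ± 2.07 (SE) and its second probe set by 2.59 ± 1.90 (SE). Psap and Asah1, 2 genes of lysosomal ceramide breakdown, had r = 0.513 (exact permutation p = 0.197, adjusted 0.395) and rho = 0.429 (exact permutation p = 0.299, adjusted 0.598), with r = -0.0356 without the 2 farthest arrays.

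Omega-hydroxyceramide becomes acylceramide when PNPLA1, helped by ABHD5, hands it linoleate from a triglyceride. Abhd5 deviated by -0.00236, -0.122, 0.00754 and -0.301 in the controls and by 0.230, 0.488, -0.0423 and -0.258 with collagen. Collagen arrays 1 and 2 stood above the controls, the others among them, and the difference was 0.209 ± 0.171 (SE; exact permutation p = 0.314). Pnpla1 differed by 0.592 ± 1.19 (SE). The 2 genes had r = 0.720 (exact permutation p = 0.0477, adjusted 0.185) and rho = 0.476 (exact permutation p = 0.243, adjusted 0.598). This rested on collagen arrays 2 and 4, without which r was -0.0491, and it turned to -0.704 after quantile normalization.

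The lipoxygenases ALOX12B and ALOXE3 act in turn on the linoleate of acylceramide, which precedes its attachment to the cell envelope. Both genes had the lower mean with collagen, Alox12b by -0.723 SD and Aloxe3 by -0.456 SD, though Aloxe3 turned to 0.245 and 0.395 SD after quantile normalization and median centring. Alox12b deviated by -0.123, 1.76, 1.83 and -0.415 in the controls and by -1.28, 2.83, -0.783 and -3.82 with collagen. Aloxe3 deviated by -0.0995, 0.0388, 0.245 and 0.0385 in the controls and by -0.154, 0.405, -0.167 and -0.307 with collagen. In both genes collagen array 2 was highest, collagen array 4 lowest, and collagen arrays 1 and 3 below all 4 controls. The differences were -1.53 ± 1.44 and -0.111 ± 0.166 (SE), with exact permutation p of 0.371 and 0.486.

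This was the 1 pair of the 10 tested whose relation passed adjustment over the pairs. It includes Alox12b, the dimmest of the barrier lipid genes, whose array level is given below. Alox12b and Aloxe3 had r = 0.910 (exact permutation p = 0.00156, adjusted 0.0156) and rho = 0.952 (exact permutation p = 0.00114, adjusted 0.0114). The r was 0.828 without the 2 arrays farthest from the median, collagen arrays 2 and 4, and 0.910 with each diet centred on its own mean. Within the 4 controls it was 0.673 and within the 4 collagen arrays 0.957. The relation depended on the scaling, at 0.460 (adjusted exact permutation p = 0.262) with median centring and -0.146 after quantile normalization. The adjusted p was also above 0.05 without control array 3 (0.0774), without collagen array 2 (0.105) and without collagen arrays 2 and 4 together (0.188), at r of 0.898, 0.886 and 0.828.

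The 2 genes are neighbours in the genome. In GRCm38.p6, Aloxe3 lies at chr11:69125417-69149115 and Alox12b at chr11:69157072-69169791, with 7956 bases and 0 protein-coding genes between them. Each was read by 1 probe set. The array level was 9.370 for Aloxe3 and 8.188 for Alox12b, which lay below the median probe set mean of 8.193. A filter that kept probe sets at or above that median removed Alox12b. There were no detection calls, so the values do not show whether the Alox12b transcript was present, and the relation of the pair rests on this dim probe set.

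**Figure D2:**
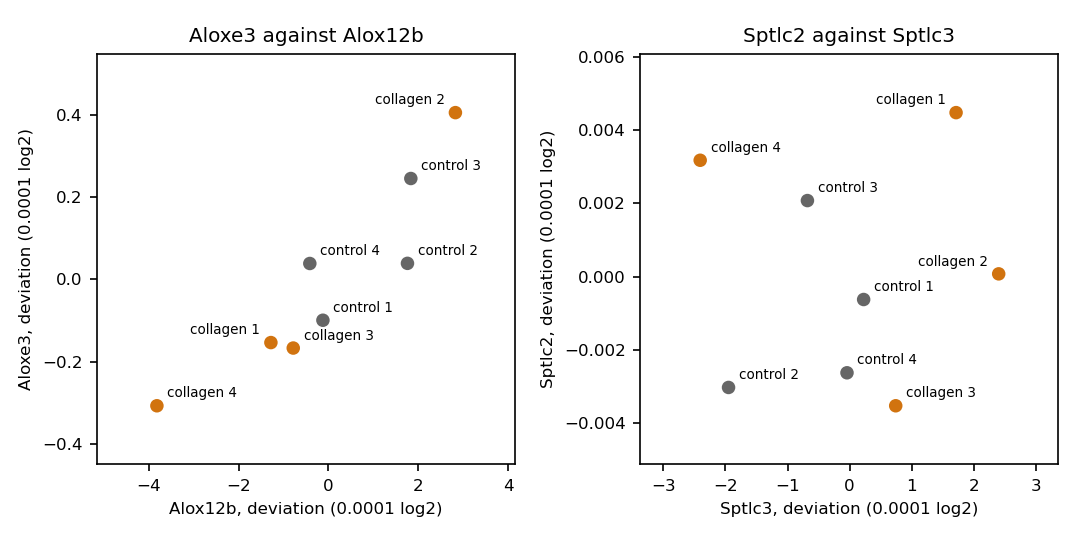
Deviations of Aloxe3 against Alox12b (left) and of Sptlc2 against Sptlc3 (right) in the 8 arrays, in 0.0001 log2 units, with control arrays in grey and collagen arrays in orange. The lipoxygenases line up (r = 0.910), with collagen arrays 2 and 4 at the ends, while the catalytic subunits of serine palmitoyltransferase do not (r = 0.0586), and the Sptlc2 axis spans 8e-07 log2 in all.

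Sult2b1, which makes the cholesterol sulfate of the outer epidermis, deviated by -3.00, -0.339, 0.711 and 0.361 in the controls and by -0.258, 8.74, -0.574 and -5.64 with collagen. Collagen array 2 stood far above and collagen array 4 far below all others. The difference was 1.14 ± 2.99 (SE; exact permutation p = 0.8286), and it turned to -0.687 SD without collagen array 2.

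Collagen arrays 2 and 4 held the extremes of many of the 33 genes. Collagen array 2 was the highest array for 20 of 33 genes (60.6%), against 13.4% of all genes, and collagen array 4 the lowest for 13 (39.4%), against 9.79%. The mean standardised deviation over the 33 genes was -0.0713, -0.520, 0.0998 and -0.154 in the controls and 0.294, 0.931, 0.201 and -0.781 with collagen. The SD between collagen arrays exceeded that between control arrays for 28 of 33 genes, against 55.9% of all genes, and the median ratio of these SDs was 1.94, against 1.10.

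**Figure D3:**
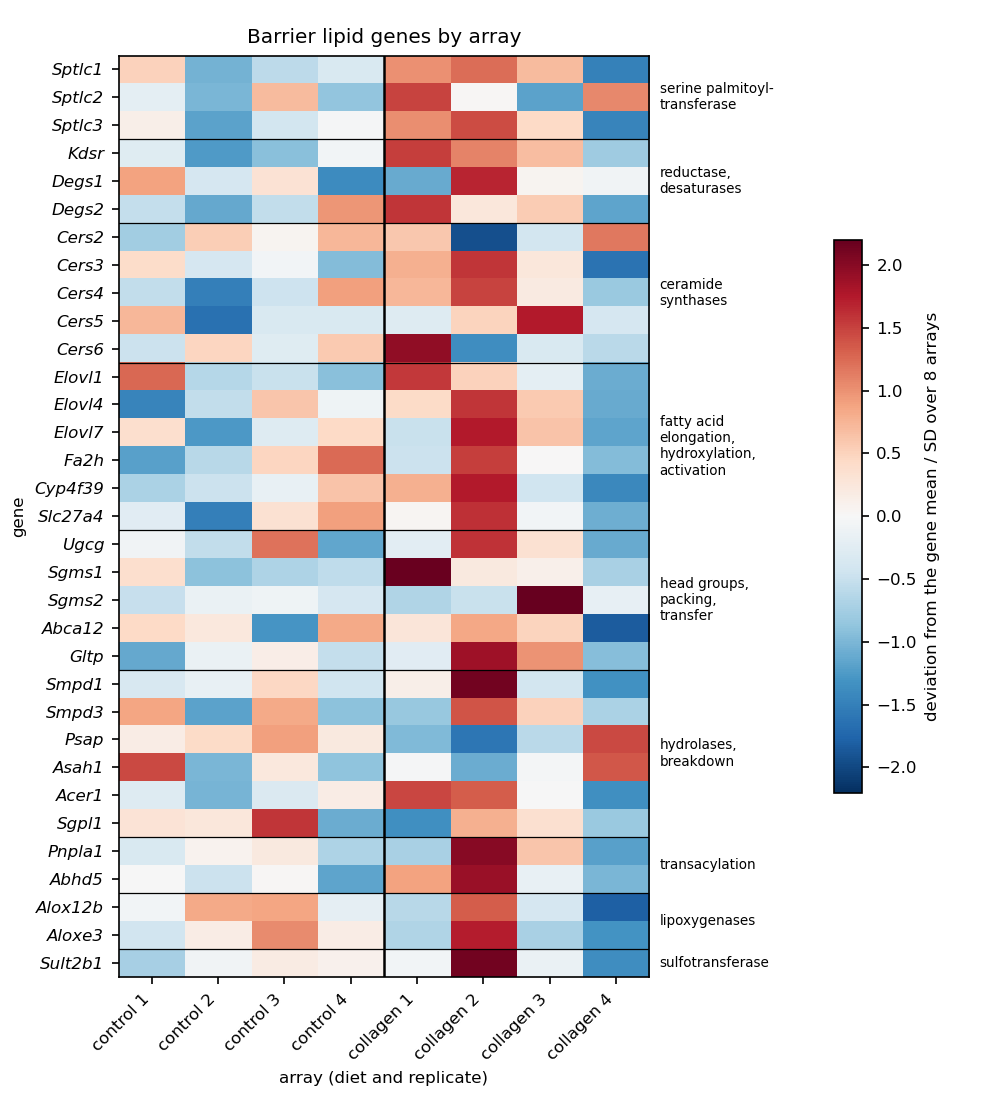
Deviation of each of the 33 genes (rows, ordered by role) from its own mean in each array (columns), in SD over the 8 arrays, with red for higher and blue for lower values. Collagen array 2 is the highest for 20 genes and collagen array 4 the lowest for 13, while Psap and Cers2 run the other way in those columns.

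Over the 528 pairs of barrier lipid genes the median r across the 8 arrays was 0.345, with 72.5% above 0 and 39.8% above 0.5. Over all 165447145 gene pairs it was 0.007, with 50.6% and 13.7%. The pairs share the same 8 arrays, so no test is given. The median was 0.310 within role groups (58 pairs) and 0.346 between them (470 pairs). It was 0.356 with each diet centred on its own mean, and was 0.0945 without collagen arrays 2 and 4, 0.170 after quantile normalization (20 genes with more than 1 value) and 0.892 with median centring. Of the 33 genes, 22 had an r above 0.5 to the mean of the others, led by Sptlc3 (0.930), Cers3 (0.896), Sptlc1 (0.874) and Acer1 (0.864). Below 0 were Psap (-0.887), Cers2 (-0.822), Asah1 (-0.458), Cers6 (-0.230), Sptlc2 (-0.0195) and Sgms2 (-0.0186), which makes 6. Without collagen arrays 2 and 4, 12 of 33 were above 0.5 and 8 below 0. After quantile normalization 6 of the 20 genes with a value were above 0.5 and 5 below 0, and with median centring, which shifts all genes of an array alike, 32 and 0 of 33.

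**Figure D4:**
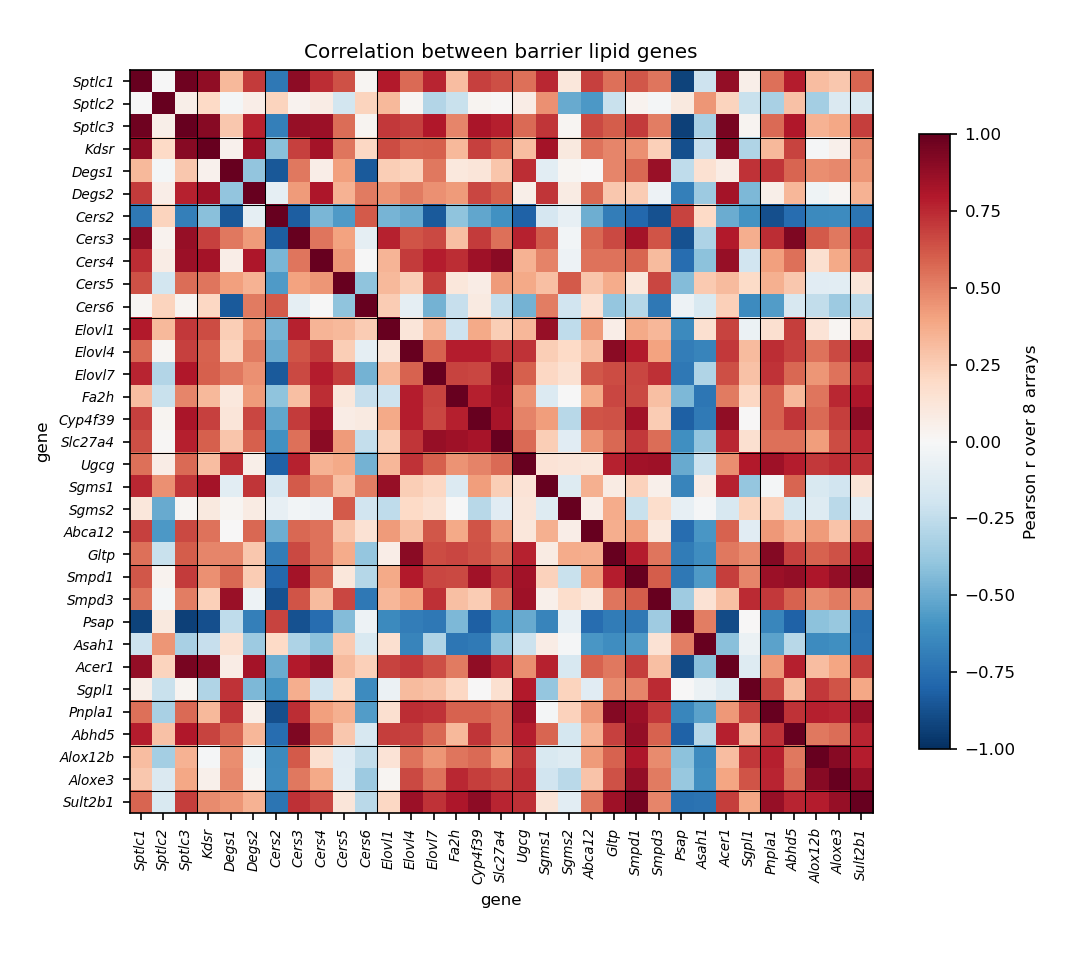
Pearson r over the 8 arrays for each pair of the 33 genes, on axes that list the genes by role, from -1 (blue) to 1 (red), with lines between role groups. The block of the 6 chain-making genes (median r 0.673) and the lipoxygenases (0.910) are red, and Cers2, Psap and Asah1 appear as blue bands.

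Probe sets of the same gene mostly ran alike. The 33 genes had 69 probe sets, and 19 genes had more than 1. Of the 36 further probe sets, 32 gave a difference of the same sign as the brightest, their median r to it was 0.815, 27 were above 0.5 and 0 below 0. The 4 of opposite sign belonged to Sptlc2, Elovl1, Smpd3 and Sgpl1.

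Among 32 further genes of sphingolipid and barrier lipid metabolism, 28 were measured. These had 0 of 28 called at an adjusted p under 0.05 by limma, against 0.0% of all genes. At an unadjusted p under 0.05 there were 0, against 2.26% higher and 1.23% lower with collagen over all genes. The mean was higher with collagen for 20 of 28, against 52.9% of all genes. Their median difference was 0.296 SD, against 0.0517 SD. The smallest p was that of Sptssa, a small subunit that activates serine palmitoyltransferase, with deviations of -0.00293, -0.00793, -0.00483 and -0.0370 in the controls and 0.0140, 0.0294, 0.0225 and -0.0131 with collagen. As in Kdsr, collagen arrays 1 to 3 lay above all controls (difference 0.0264 ± 0.0120, SE). Sphk2, a sphingosine kinase, differed by -0.0569 ± 0.0320, and Hsd17b12, the ketoreductase of fatty acid elongation, by 0.0640 ± 0.0458 (SE). The mean standardised deviation of the 28 genes followed that of the 33 (r = 0.961 over 8 arrays and 0.818 over the 6 without collagen arrays 2 and 4). Gm2a, another lysosomal lipid-presenting protein and named after its values were seen, had a difference of -0.363 ± 0.275 (SE).

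Markers of several skin cell types were extreme in the same arrays. Array levels of the 2 brightest markers per list were 14.39 (Krt10) and 14.22 (Krtdap) for cornified and suprabasal keratinocytes, 14.19 (Krt14) and 13.26 (Krt5) for basal keratinocytes, and 12.44 (Far2) and 11.65 (Elovl3) for sebaceous gland. For hair follicle they were 11.94 (Krt25) and 11.11 (Krt27), for dermal fibroblasts 14.13 (Col1a2) and 14.10 (Dcn), for adipocytes 13.18 (Fabp4) and 12.85 (Adipoq), and for skeletal muscle 13.99 (Acta1) and 13.22 (Ckm). For endothelium they were 9.55 (Esam) and 9.21 (Cdh5), for macrophages and Langerhans cells 12.81 (Csf1r) and 11.17 (Cd68), and for melanocytes 9.99 (Dct) and 9.24 (Tyrp1). With no detection calls, an array level does not show by itself that a transcript was present.

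Of 10 measured cornified keratinocyte markers, 7 were highest in collagen array 2 (13.4% of all genes) and 8 lowest in collagen array 4 (9.79% of all genes). Their mean standardised deviation ran from -0.756 to 0.554 in the controls and from -1.17 to 1.48 with collagen, and its r to that of the barrier lipid genes was 0.836 over 8 arrays and 0.315 over 6. Basal markers gave 0.102 over 8 and 0.379 over 6 arrays. The 4 sebaceous markers gave 0.799 and 0.815. Over all genes, 15.3% were lowest in collagen array 2. Endothelial markers, with 4 of 5 lowest in that array, gave -0.863 and -0.701. Macrophage and Langerhans markers (also 4 of 5) gave -0.836 and -0.480, and dermal fibroblast markers (4 of 6) -0.768 and -0.310. Adipocyte markers (3 of 4) gave -0.508 and 0.509. Hair follicle markers gave -0.306 and -0.770, muscle markers -0.179 and -0.519, and melanocyte markers 0.384 and -0.176. The part of these cell types in the array-to-array pattern of the barrier lipid genes was not tested.

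**Figure D5:**
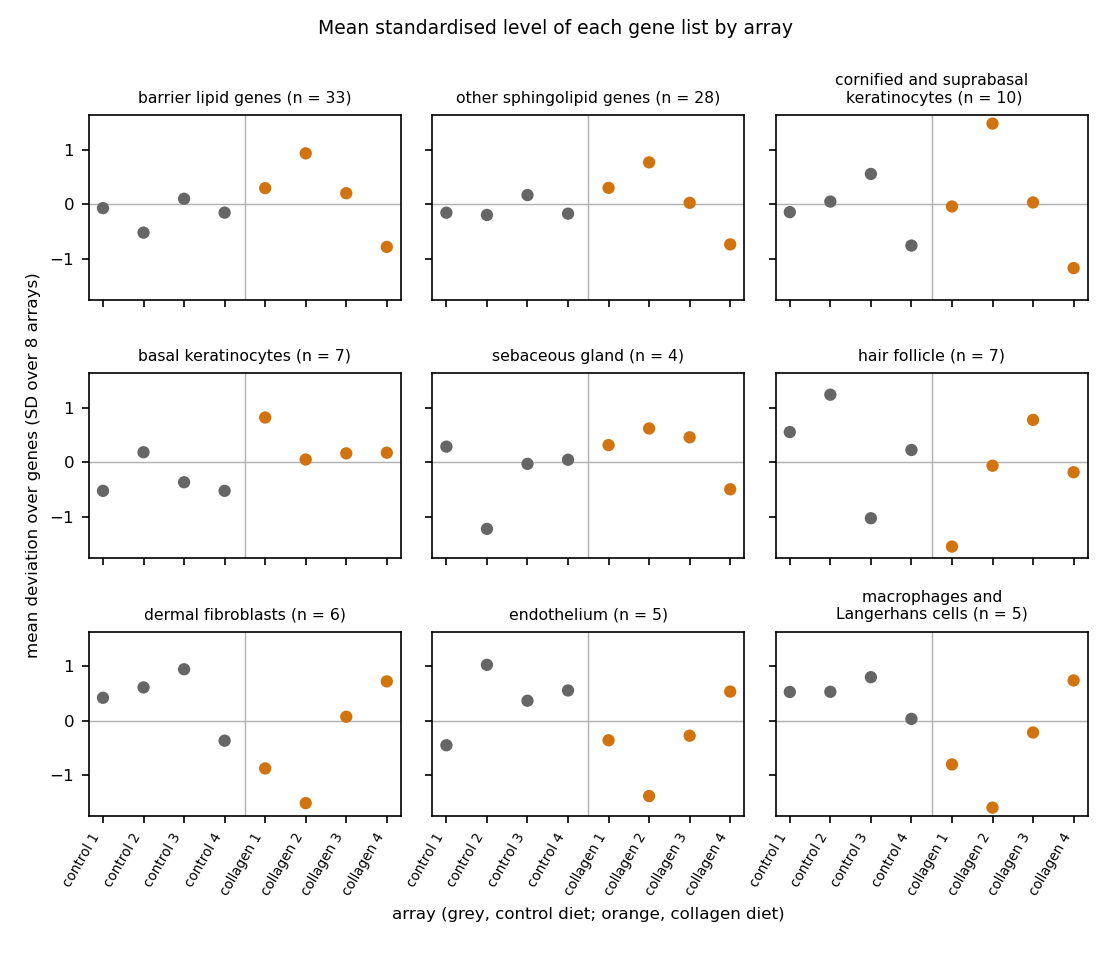
Mean standardised deviation (y axis, in SD over 8 arrays) of the barrier lipid genes and of 8 other gene lists in each array, with control arrays in grey and collagen arrays in orange. In collagen array 2 the barrier lipid genes (0.931) and the cornified keratinocyte markers (1.48) are at their highest while fibroblast, endothelial and macrophage markers are at their lowest.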

How the data were processed

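Total RNA of powdered dorsal skin was biotinylated and run on mouse arrays of 1 colour (per the labels). The authors deposited log2 values, 1 column per array, with a scale inferred from their span. R 2.7.2 appears in the submitters' processing notes. How probes were summarised and arrays normalised, the sources used here do not say. Signal over background is therefore unknown, and the number of arrays limits the precision.

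Values were used as deposited. Of 45101 probe sets, 64 controls were left out. The annotation gave 1 symbol to 34945 of the rest, several to 932 and none to 9160, and the brightest single-gene probe set stood for each of 18193 genes. A two-sided limma fit without covariates (version 3.58.1, R 4.3.3, lmFit then eBayes) tested each gene, with Benjamini-Hochberg adjustment over all genes and a threshold of 0.05. The 95% intervals are limma's. Exact permutation tests, two-sided, ran over 70 assignments of arrays, or over 40320 pairings for correlations of 10 listed gene pairs, and used Python 3.11.15 with scipy 1.17.1. Figures were drawn with matplotlib 3.10.9. The fit was tested on simulated data.

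The genes, lists, pairs and naming rule were chosen with earlier results of these data known. All 33 genes are named. Values in every array are given for the smallest p of each role, for Sptlc2, Cers3, Elovl4, Abca12, Alox12b and Aloxe3, and, of the further lipid genes, for the smallest p. The 3 smallest p among the further genes and the 2 brightest markers of each list are named. Promoters shown, and any pair or gene said to be so, were picked after values were seen.

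Replicate numbers were checked for pairing. The deviations of same-numbered arrays correlated across genes at 0.362, 0.0486, 0.215 and 0.0111. For a control and a collagen array of different number, r ran from -0.283 to 0.175, so 0.362 and 0.215 lay above all of these. The main fit still treated the numbers as names only, which these values do not settle. Whether same-numbered arrays were paired or shared a batch was not tested. Alternatives were each left-out array, other scalings, a filter on dim probe sets, other probe set choices, variance models, array weights and the replicate number as a block. The set without collagen arrays 2 and 4 was added after the data were seen.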

Additional observations from a re-analysis of the deposited data

Results flagged for a closer look

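In 66 groups of 4 arrays, 1 for each gene and diet, a single array stood apart from the rest by more than Dixon's 95% critical value for the gap to its neighbour over the whole range. It was collagen array 3 for Sgms2, a sphingomyelin synthase, at 0.844 of the range: its deviation was 0.645, against -0.174, -0.128 and -0.0467 in the other collagen arrays and -0.137 to -0.0231 in the controls. Chance gives this in about 1 of 20 groups. Without that array the Sgms2 difference was -0.737 SD, against 0.539 SD with it. A second Sgms2 probe set had r = 0.202 to the brighter one.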

How the results depend on the processing

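No barrier lipid gene passed adjusted p 0.05 under any alternative run, and 0 genes of all did. Of 547 values of single genes under the alternatives, 45 had the other sign. The 547 include values that could not change sign. The dim filter, probe sets tested singly, the variance models and the replicate block keep each gene's main difference by construction. In 13 genes the sign was the same under each alternative that gave a value. They were Sptlc3, Kdsr, Degs2, Cers3, Cers4, Abhd5 and Alox12b, of which the filter on dim probe sets removed Alox12b. The others were Sptlc1, Cers5, Elovl4, Sgms1, Gltp and Acer1, which quantile normalization left constant and so without a sign there. With the replicate block, 0 genes were called, 26 of 33 means were higher, the median difference was 0.338 SD and the smallest adjusted p was 0.831. It changed no other call.

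Quantile normalization left 13 genes constant and 13 of the other 20 higher (53.03% of all genes), with a median r of 0.170. The genes of other sign were then Cers2 (0.314 SD), Ugcg (-0.0914), Sgms2 (-0.538), Abca12 (0.739), Psap (0.463), Asah1 (-0.707), Pnpla1 (-0.468) and Aloxe3 (0.245). The r of Alox12b and Aloxe3 was -0.146 and that of Pnpla1 and Abhd5 -0.704. With median centring, the genes of other sign were Cers2 (0.447 SD), Cers6 (0.433), Abca12 (0.417), Psap (0.361), Sgpl1 (0.410) and Aloxe3 (0.395), the median r was 0.892, and r was 0.946 for Sptlc1 and Sptlc2, 0.942 for Abca12 and Ugcg, 0.751 for Degs1 and Degs2, 0.988 for Psap and Asah1, 0.959 for Elovl4 and Abca12 and 0.460 for Alox12b and Aloxe3. Adding 1 array value to all genes brings their r together by construction. With probe sets averaged, Sgpl1 was at 0.379 SD and the r of Sptlc1 and Sptlc2 was 0.356. With array weights Sptlc2 was at -0.0935 and Abca12 at 0.405 SD. With values centred within each diet the r of Sptlc2 and Sptlc3 was -0.103, and Spearman's rho of Sptlc1 and Sptlc2 was 0.0238. The cause of these changes was not tested.

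With 1 array left out at a time, 18 to 27 means were higher, and the median difference ran from 0.211 to 0.847 SD and the median r from 0.228 to 0.457. Differences crossed 0 for Fa2h (-0.500 to 0.479 SD), Abca12 (-0.593 to 0.636), Slc27a4 (-0.262 to 0.663), Smpd3 (-0.255 to 0.474), Asah1 (-0.340 to 0.684), Degs1 (-0.277 to 0.707), Ugcg (-0.212 to 0.787), Elovl1 (-0.0825 to 0.983), Cers2 (-0.753 to 0.430), Cers6 (-1.60 to 0.269), Elovl7 (-0.184 to 0.874), Cyp4f39 (-0.222 to 1.06), Smpd1 (-0.736 to 0.820), Pnpla1 (-0.373 to 0.892), Sult2b1 (-0.687 to 0.893) and Sgms2 (-0.737 to 0.848). The r ran from -0.337 to 0.350 for Sptlc1 and Sptlc2, 0.383 to 0.910 for Cers3 and Elovl4, -0.264 to 0.420 for Sptlc2 and Sptlc3, 0.886 to 0.944 for Alox12b and Aloxe3, 0.262 to 0.921 for Pnpla1 and Abhd5, -0.360 to 0.491 for Abca12 and Ugcg, and -0.0460 to 0.524 for Elovl4 and Abca12. Without collagen arrays 2 and 4 together, 24 means were higher (49.8% of all genes), the median r was 0.0945, and r was 0.828 for Alox12b and Aloxe3, 0.363 for Sptlc1 and Sptlc2, -0.0965 for Cers3 and Cyp4f39, -0.0491 for Pnpla1 and Abhd5, -0.841 for Abca12 and Ugcg, -0.0356 for Psap and Asah1 and -0.386 for Elovl4 and Abca12.

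The limits are the 4 arrays per diet, a deposited scale whose compression is unexplained, a tissue of mixed cells, and transcripts read without lipids or proteins.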
